A study of Mus musculus with 6 samples.

Results

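The unfolded protein response and the integrated stress response were followed through 10 genes in the liver of HFD-fed mice. *Hspa5*, *Hsp90b1*, *Dnajb9* and *Herpud1* encode chaperones and degradation factors of the endoplasmic reticulum (ER), *Xbp1* and *Atf4* encode transcription factors at the head of the responses, and *Ddit3*, *Trib3*, *Asns* and *Chac1* are known targets of ATF4. They were chosen by gene name, and all 10 were found among the 21528 genes listed in any library. None of the 10 differed between genotypes at an adjusted p-value under 0.05 (limma with Benjamini-Hochberg adjustment over all genes tested), against 7.72% of all genes tested. *Xbp1* was the member whose groups did not overlap, at 1.33 times the WT mean in the TRIM24C52/55A liver (adjusted p = 0.0857), and 6.31% of all genes tested were likewise higher without overlap.

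RNA-Seq was carried out on whole liver of 3 WT and 3 homozygous TRIM24C52/55A mice, the latter carrying alanine in place of a pair of cysteines in the RING domain, the E3-ligase module, of the endogenous TRIM24. The knockin was made with CRISPR/Cas9 on a C57Bl/6J background and is carried by every cell of the body, so a difference in the liver need not arise there. The labels give the strain of all 6 mice as C57BL/6, and the mice were 5 months old and fed a diet with 60% fat for 3 months, and the WT mice were littermates from matings of heterozygotes. No chow-fed liver and no liver treated with an ER stressor was among the libraries, so the values have no stressed reference beside them. The labels number the libraries of each genotype 1 to 3 without naming the animals, and p-values measure the spread between these libraries.

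Values are FPKM, fragments counted for a gene after scaling for transcript length and library size. Relative depths, read from the steps between low values, were 0.964 to 1.03. FPKM summed to 644619 to 648221 in WT and 673244 to 676791 in TRIM24C52/55A libraries, and mitochondrially encoded genes took 14.33% to 14.94% and 12.15% to 13.13% of them. Of the hepatocyte markers, 7 of 8 were used and summed to 19600 to 20270 FPKM in WT and 18890 to 21020 FPKM in TRIM24C52/55A livers, most of it from *Apoa1* and *Ttr*, while *Cps1* was called higher (adjusted p = 0.0281) and *Cyp2e1* lower (adjusted p = 0.0318). TRIM24C52/55A replicate 2 stood apart by *Adipoq*, *Plin1*, *Lep* and *Retn*, 4 of 9 adipocyte markers, at 4.55, 3.32, 3.98 and 1.59 FPKM there and at most 0.127 FPKM elsewhere. The other 5 markers were not limited to this library: *Cfd* was highest in WT replicate 2 (8.62 FPKM) and *Cidea* in WT replicate 1 (2.98 FPKM), and *Adrb3* had 1.99 to 2.17 FPKM in WT and 7.81 to 12.4 FPKM in all TRIM24C52/55A livers (adjusted p = 0.000715). *Trim24* had 5.54, 4.85 and 5.96 FPKM in WT and 6.15, 4.31 and 8.46 FPKM in TRIM24C52/55A livers, which does not check the genotype because the knockin replaces codons. The test used log2(FPKM + 1) and took in 12225 genes whose mean reached 0.5 FPKM, among them all 10 members. At an adjusted p-value under 0.05, 944 genes were called, of which 200 (1.64%) were higher and 744 (6.09%) were lower in the TRIM24C52/55A liver, and the median log2 fold change was -0.075. The split depended on scaling, with 250 higher and 406 lower under median-of-ratios, 255 and 378 under quantile, and 197 and 1358 under TPM scaling.

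Unfolded protein in the ER lumen is sensed by IRE1, PERK and ATF6 in the ER membrane. IRE1 removes a short intron from the *Xbp1* mRNA, ATF6 is cleaved into a transcription factor, and PERK phosphorylates eIF2alpha, which slows most translation while the *Atf4* mRNA is translated more. The kinases GCN2, PKR and HRI reach the same eIF2alpha switch from amino acid shortage, viral RNA and haem or mitochondrial stress, which together form the integrated stress response. The liver secretes much of the plasma protein and holds a large ER, and these pathways have been studied there in fatty liver and in feeding. ATF4 and XBP1 are controlled largely by translation and splicing, which gene-level FPKM do not record.

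The genes of the ER arm and of the ATF4 arm are known to be read through different short DNA elements, and the elements found near the members' starts are shown for that reason. RefSeq promoter windows on GRCm38.p6, from 250 bases before to 50 bases after each start, were searched on both strands for exact letters. The searched letters were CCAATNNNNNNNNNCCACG (ERSE, the ER stress element), ATTGGNCCACG (ERSE-II), TGACGTGG (UPRE) and TGATGNAA (CARE, the C/EBP-ATF element). The letters CCACG are shared by ERSE and ERSE-II, and UPRE holds their reverse complement. In each run the capitals mark the match, every run reads 5′ to 3′ on the strand of its gene, and "opposite" means that the letters stand on the other strand.
Hspa5, ERSE, chr2:34772020-34772048, + strand: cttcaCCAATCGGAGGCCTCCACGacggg
Hsp90b1, ERSE, chr10:86705633-86705661, - strand: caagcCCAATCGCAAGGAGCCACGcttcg
Hsp90b1, ERSE opposite, chr10:86705528-86705556, - strand: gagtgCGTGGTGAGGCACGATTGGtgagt
Herpud1, ERSE-II, chr8:94386368-94386396, + strand: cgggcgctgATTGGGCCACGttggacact
Herpud1, CARE opposite, chr8:94386306-94386335, + strand: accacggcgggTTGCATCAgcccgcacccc
Trib3, CARE opposite, chr2:152344028-152344057, - strand: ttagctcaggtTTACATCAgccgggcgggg
Asns, CARE, chr6:7693214-7693243, - strand: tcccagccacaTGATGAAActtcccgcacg
Chac1, CARE opposite, chr2:119351038-119351067, + strand: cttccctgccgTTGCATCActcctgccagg

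ERSE was found in the windows of 2 of the 10 members, *Hspa5* and *Hsp90b1*, and in 0.119% of 32851 windows. ERSE-II was found for *Herpud1* and in 0.0365% of windows. CARE was found for 4 members, *Herpud1*, *Trib3*, *Asns* and *Chac1*, and in 3.97% of windows. UPRE was in 0.676% of windows and in none of the members', and for *Xbp1*, *Dnajb9*, *Atf4* and *Ddit3* none of these letters lay in the window. The members' windows held 51% to 68.3% G and C, against a median of 52.7% over all windows. A match is a description of letters and not of binding, and the search says nothing of elements farther away or with other letters.

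**Figure D1:**
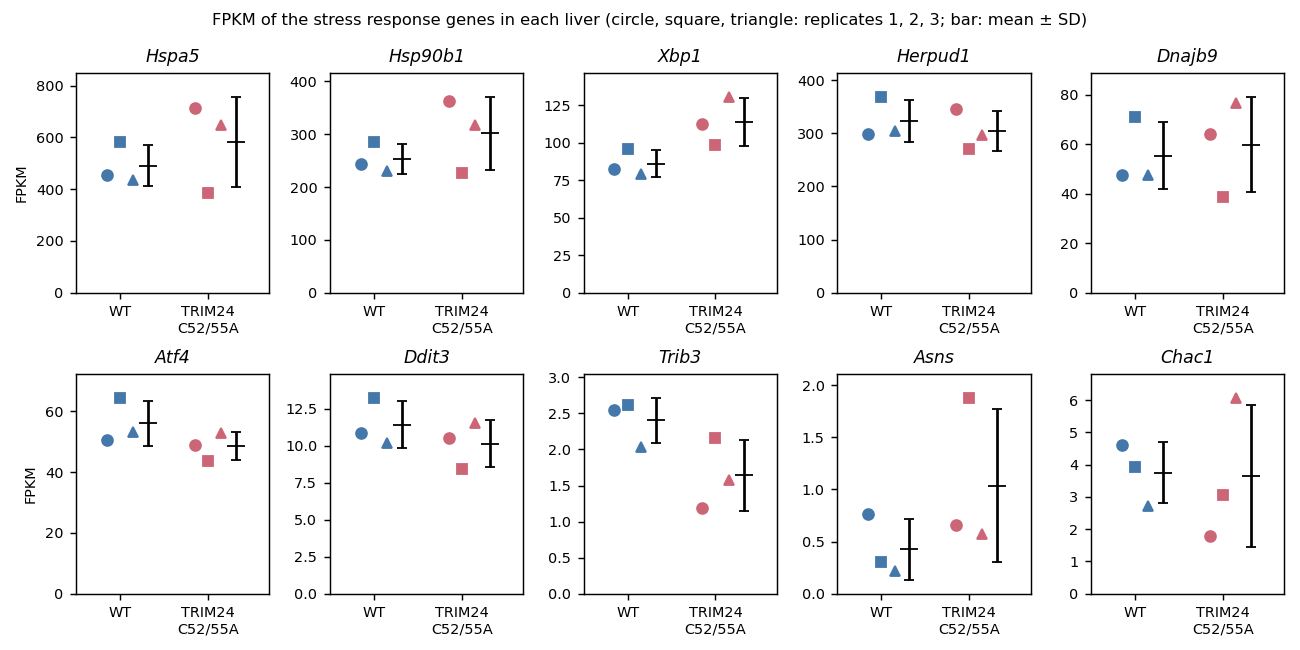
FPKM (linear axis from 0, each gene on its own scale) of the 10 members in the 3 WT (blue) and 3 TRIM24C52/55A (red) livers, with circle, square and triangle for replicates 1, 2 and 3 and bars for mean ± SD. The groups stand apart for Xbp1 alone, and the red square, TRIM24C52/55A replicate 2, is the lowest point for 6 of the 10 genes, against 6.31% of all genes tested higher without overlap, 22.5% lower without overlap and 17.7% lowest in that library.

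The members spanned a wide range of levels, and their order by FPKM, a scale per length, was nearly the same in every liver. *Hspa5* was the highest of the 10 in 6 of 6 libraries. *Herpud1* and *Hsp90b1* followed and changed places in TRIM24C52/55A replicates 1 and 3. *Xbp1* held rank 4 in 6 of 6 libraries, and *Atf4* and *Dnajb9* followed it and changed places in WT replicate 2 and TRIM24C52/55A replicates 1 and 3. *Ddit3*, *Chac1*, *Trib3* and *Asns* came next, in this order in 6 of 6 libraries. Across the 6 libraries the ranges of the neighbours *Herpud1* and *Hsp90b1*, *Atf4* and *Dnajb9*, *Chac1* and *Trib3*, and *Trib3* and *Asns* overlapped. Within each library *Chac1* stayed above *Trib3*, and *Trib3* above *Asns*, while the other pairs changed places between libraries. By the size of the low-value steps, *Hspa5* rested on roughly 23605 to 44247 fragments a library, and *Asns* on roughly 8 to 63, so the precision of the lowest members is limited by counting as well as by the 3 mice a group.

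The main chaperones of the ER lumen did not differ between genotypes beyond their spread, and they varied together between livers. *Hspa5* (chromosome 2, 34771970 to 34777547, plus strand; coordinates as the files give them, on GRCm38) encodes BiP, the ER HSP70 that binds unfolded chains and holds the sensors inactive. Replicates 1 to 3 had 457, 584 and 434 FPKM in WT and 715, 385.5 and 648.5 FPKM in TRIM24C52/55A livers, and values of other genes are given in the same order. The lowest and the highest of the 6 livers, 1.86-fold apart, were both TRIM24C52/55A, and the groups overlapped. The means were 491.5 ± 80.7 and 583.1 ± 174.3 (SD, n = 3 each), which gave a log2 fold change of 0.21 (95% confidence interval -0.30 to 0.72, adjusted p = 0.634, exact permutation p = 0.5). For 3 against 3 libraries the smallest two-sided permutation p is 0.1. Its within-group SD on the log2 scale was higher than that of 95.9% of genes tested. In whole liver, fewer cells of a type and less RNA per cell cannot be told apart, here and in every value that follows.

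*Hsp90b1* (chromosome 10, 86685601 to 86705509, minus strand) encodes GRP94, the HSP90 of the ER. It had 243.8, 285.8 and 231 FPKM in WT and 362, 226.2 and 316.9 FPKM in TRIM24C52/55A livers. The 6 livers stood in the same order for *Hsp90b1* as for *Hspa5*, from TRIM24C52/55A replicate 2 as the lowest to TRIM24C52/55A replicate 1 as the highest, and the ratio of *Hspa5* to *Hsp90b1* FPKM stayed between 1.7 and 2.05. The log2 fold change of *Hsp90b1* was 0.23 (95% confidence interval -0.16 to 0.61, adjusted p = 0.467, permutation p = 0.4). The files' interval is 19.9 kb long against 15.3 kb in GENCODE M21. Without TRIM24C52/55A replicate 2 the log2 fold changes were 0.48 for *Hspa5* and 0.42 for *Hsp90b1* (adjusted p = 0.0684 and 0.059), and without TRIM24C52/55A replicate 1 they were 0.04 and 0.08.

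*Dnajb9* (chromosome 12, 44205897 to 44210068, minus strand) encodes ERdj4, a co-chaperone of BiP that is known to repress IRE1. It had 47.4, 71 and 47.5 FPKM in WT and 64.2, 38.6 and 76.5 FPKM in TRIM24C52/55A livers. The knockin group held both the lowest and the highest liver, 1.98-fold apart. The log2 fold change was 0.08 (95% confidence interval -0.49 to 0.66, adjusted p = 0.884), and it ran from -0.12 without TRIM24C52/55A replicate 3 to 0.36 without replicate 2. It was also below 0, at -0.01, without WT replicate 1 or 3. *Herpud1* (chromosome 8, 94377872 to 94395377, plus strand) encodes a membrane protein of ER-associated degradation (ERAD), which returns misfolded proteins to the proteasome. It had 298, 369 and 304 FPKM in WT and 346, 271 and 296 FPKM in TRIM24C52/55A livers. It was the member that varied least, 1.36-fold from lowest to highest, and its log2 fold change was -0.09 (95% confidence interval -0.36 to 0.18, adjusted p = 0.712). Its sign turned with the scaling, to 0.01 with median-of-ratios and 0.07 with quantile normalization. The files' interval for *Herpud1* also covers the lincRNA *Gm15889* on the same strand, listed separately at 0.988 to 2.97 FPKM.

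The other ER chaperones and folding enzymes, 22 genes that include the calnexin cycle and the protein disulphide isomerases, were above 0 for 19 and below 0 for 3. Their median log2 fold change was 0.187, against -0.075 over all genes tested. None was called higher and 1 (4.55%) was called lower, against 6.09% of all genes tested. That gene was *P4hb*, a protein disulphide isomerase, with 449, 468 and 454 FPKM in WT and 359.5, 355 and 395 FPKM in TRIM24C52/55A livers (log2 fold change -0.31, adjusted p = 0.0454). It was called in 5 of 15 alternatives and lost the call without any of WT replicates 1, 2 or 3 or TRIM24C52/55A replicates 1 or 2. *Ppib*, an ER peptidyl-prolyl isomerase chosen after its values were seen, had means of 189.2 ± 15 and 238.6 ± 19.04 FPKM and no overlap (log2 fold change 0.33, adjusted p = 0.0641). *Ppib* passed the threshold with median-of-ratios scaling and with quantile normalization, and *P4hb* did not. The list's median was 0.126 with TPM, 0.287 with median-of-ratios and 0.318 with quantile scaling.

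The list's values also differed from liver to liver within each genotype, as those of *Hspa5* did. TRIM24C52/55A replicate 1 was the highest of the 6 libraries for 15 of the 22 genes. TRIM24C52/55A replicate 2 was the lowest for 10 of them and WT replicate 3 for 7. Over all genes tested, these libraries were highest for 10.1%, and lowest for 17.7% and 9.67%. The median deviation of the 22 genes from their own means was -0.153, 0.0593 and -0.179 on the log2 scale in WT replicates 1 to 3. In TRIM24C52/55A replicates 1 to 3 it was 0.26, -0.108 and 0.157. The list's median log2 fold change was 0.31 without TRIM24C52/55A replicate 2 and 0.0835 without TRIM24C52/55A replicate 1. The part of the adipocyte genes of TRIM24C52/55A replicate 2 in these values was not tested.

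**Figure D2:**
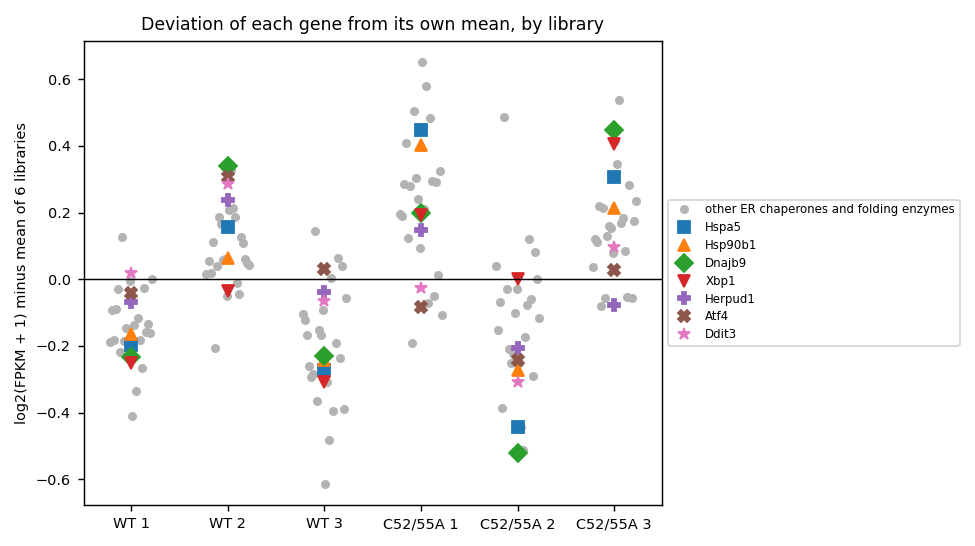
Deviation of log2(FPKM + 1) from the gene's mean over the 6 libraries, for the 22 other ER chaperones and folding enzymes (grey) and 7 members (coloured). Hspa5, Hsp90b1 and Dnajb9 lie above 0 in WT 2, C52/55A 1 and C52/55A 3 and below 0 in the other libraries, and Xbp1 has its highest value in C52/55A 3.

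As a description over 6 libraries that share a pipeline and a depth, the genes whose log2(FPKM + 1) was most like that of *Hspa5* were *Canx*, *Cenpo*, *Txndc11* and *Pdia4*, with Pearson's r of 0.994, 0.991, 0.989 and 0.989 among 12224 other genes. *Canx*, *Txndc11* and *Pdia4* stand on the chaperone list. *Hsp90b1* ranked 10 (r = 0.983) and *Dnajb9* 114 (r = 0.910). *Xbp1* and *Herpud1* were less alike, at ranks 620 (r = 0.712) and 764 (r = 0.674). *Trib3* ran the other way across the libraries, with r = -0.636.

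*Xbp1* (chromosome 11, 5520659 to 5525893, plus strand) encodes the transcription factor that IRE1 activates, which drives genes of folding, ERAD and secretion. It had 82.4, 95.9 and 79.2 FPKM in WT and 112.4, 98.3 and 130.5 FPKM in TRIM24C52/55A livers. Each TRIM24C52/55A liver stood above each WT liver, though TRIM24C52/55A replicate 2 was close to WT replicate 2. Groups without overlap and higher in TRIM24C52/55A were found for 6.31% of all genes tested, and lower ones for 22.5%. The means were 85.8 ± 8.88 and 113.7 ± 16.2 (SD, n = 3 each), and the log2 fold change was 0.40 (SE 0.12, 95% confidence interval 0.12 to 0.67). With p = 0.00996 before and 0.0857 after limma's adjustment over all genes, the difference did not pass the test, and the exact permutation p was the smallest that 3 against 3 allows, 0.1. It passed the threshold in 2 of 15 alternatives, with quantile normalization (log2 fold change 0.55, adjusted p = 0.0402) and without TRIM24C52/55A replicate 2 (0.50, adjusted p = 0.0351). The ratio of *Hspa5* to *Xbp1* FPKM was 5.54, 6.08 and 5.48 in WT and 6.36, 3.92 and 4.97 in TRIM24C52/55A livers. Spliced and unspliced *Xbp1* mRNA are not separated in these values.

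The genes around XBP1 gave no called difference, against 7.72% of all genes tested. Of 23 translocon, signal sequence and vesicle genes tested of 24 listed, 13 were above and 10 below 0, with a median log2 fold change of 0.00738. That split followed the scaling, with 7 above and 16 below 0 (median -0.0532) with TPM, 18 and 5 (0.103) with median-of-ratios and 21 and 2 (0.153) with quantile scaling. The smallest p-values among them were those of *Ssr4*, a translocon-associated protein (72.96, 79.83 and 75.61 against 91.03, 92.29 and 83.91 FPKM, log2 fold change 0.22, adjusted p = 0.119), and *Sec11c*, a signal peptidase subunit (log2 fold change 0.20, adjusted p = 0.217). *Ssr4* passed the threshold in 2 of 15 alternatives. Of 20 other ERAD genes, 8 were above and 12 below 0, with a median of -0.0722, near that of all genes tested, which turned to 0.0262 with median-of-ratios and 0.0557 with quantile scaling. *Vcp*, the ATPase that pulls substrates from the membrane, had a log2 fold change of -0.26 (adjusted p = 0.0693), and *Herpud2*, a relative of *Herpud1*, of -0.27 (adjusted p = 0.0798), and each passed the threshold in 1 of 15 alternatives. Of the 20 genes, 7 were lower in every TRIM24C52/55A liver than in every WT liver, against 22.5% of all genes tested, and 2 were higher in every one, against 6.31%. *Os9*, an ERAD lectin named after its values were seen, was called higher in 2 of 15 alternatives.

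The sensors and the eIF2alpha switch, 19 genes with the kinases, the eIF2B subunits and the eIF2alpha phosphatases, gave no called gene, against 7.72% of all genes tested. Of the 19, 7 were above and 12 below 0, with a median of -0.0316 that turned to 0.0456 with median-of-ratios and 0.0288 with quantile scaling. *Ern1*, which encodes IRE1alpha, had 11.3, 11.7 and 11.8 FPKM in WT and 15.7, 11.5 and 13.2 FPKM in TRIM24C52/55A livers (log2 fold change 0.19, adjusted p = 0.368). The groups overlapped through TRIM24C52/55A replicate 2, and without it the log2 fold change of *Ern1* was 0.29 (adjusted p = 0.102). *Eif2b3*, an eIF2B subunit, had 4.42, 4.88 and 4.18 FPKM against 3.155, 3.83 and 3.72 FPKM, with no overlap (log2 fold change -0.27, adjusted p = 0.169).

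**Figure D3:**
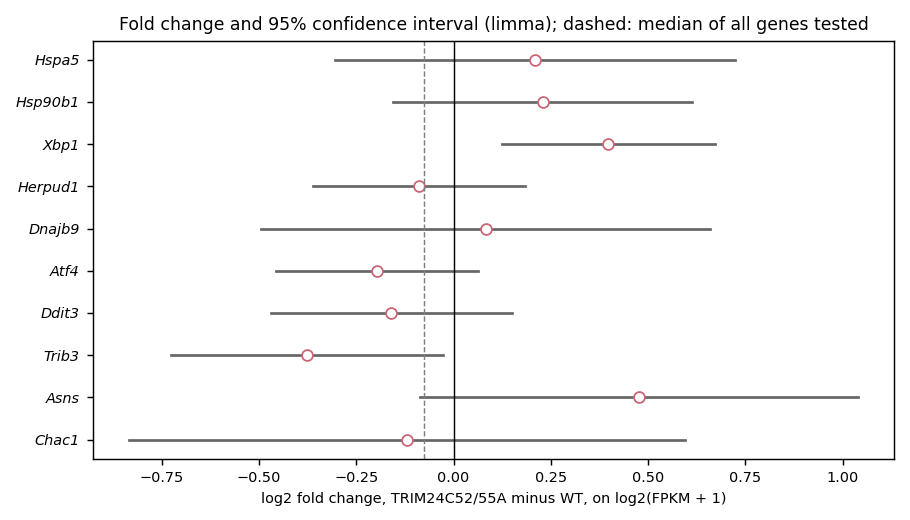
Log2 fold change of each member, TRIM24C52/55A minus WT, on log2(FPKM + 1), with its 95% confidence interval from limma and the median of all genes tested (dashed, -0.075). The intervals of Xbp1, at 0.40, and Trib3, at -0.38, leave out 0, and open circles mark that no member had an adjusted p-value under 0.05.

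In the ATF4 arm no member was called, and the log2 fold changes were below 0 for 4 of its 5 genes, as for 8005 of all 12225 genes tested. *Atf4* (chromosome 15, 80255184 to 80257540, plus strand) encodes the transcription factor of the integrated stress response. It had 50.5, 64.45 and 53 FPKM in WT and 49, 43.7 and 53 FPKM in TRIM24C52/55A livers. The groups overlapped, with TRIM24C52/55A replicate 3 above WT replicate 1, and the log2 fold change was -0.20 (95% confidence interval -0.46 to 0.06, adjusted p = 0.347, permutation p = 0.2). *Ddit3* (chromosome 10, 127289696 to 127311786, plus strand) encodes CHOP, a partner of C/EBP factors that is linked to cell death under lasting stress. It had 10.85, 13.2 and 10.2 FPKM in WT and 10.5, 8.44 and 11.5 FPKM in TRIM24C52/55A livers, with overlap (log2 fold change -0.16, 95% confidence interval -0.47 to 0.15, adjusted p = 0.535). The ratio of *Ddit3* to *Atf4* FPKM was between 0.192 and 0.217 in the 6 libraries.

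The files' interval for *Ddit3* is 22.1 kb, against 5.5 kb in GENCODE M21, and covers *Mars* on the opposite strand, listed at 17.6 to 21.3 FPKM. It also covers a second protein-coding entry named *Ddit3* in GENCODE M21 (127290829 to 127293753), on the same strand and without listed FPKM. Whether strand was kept is not given in the sources used here, and reads of the overlapping genes may not be told apart. The genes most like *Ddit3* over the 6 libraries were *Cltc*, *Dcaf12*, *Chst7* and *Xpo7*, with Pearson's r of 0.996, 0.980, 0.979 and 0.977. *Atf4* ranked 31 among 12224 genes (r = 0.932), *Dnajb9* 233 (r = 0.817) and *Trib3* 4669 (r = 0.176), while *Asns* ran the other way at rank 11604 (r = -0.751).

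*Trib3* (chromosome 2, 152337422 to 152344032, minus strand) encodes a pseudokinase, induced by ATF4 and CHOP, that is known to bind AKT and to dampen insulin signalling. It had 2.545, 2.62 and 2.04 FPKM in WT and 1.18, 2.16 and 1.58 FPKM in TRIM24C52/55A livers. The groups overlapped only because TRIM24C52/55A replicate 2 lay above WT replicate 3. The means were 2.40 ± 0.316 and 1.64 ± 0.493 (SD, n = 3 each), and the log2 fold change was -0.38 (SE 0.15, 95% confidence interval -0.73 to -0.03). The p-value was 0.0374 before and 0.18 after limma's adjustment over all genes. Over the 15 alternatives the adjusted p was 0.0544 to 0.443, the lowest without TRIM24C52/55A replicate 2, where the log2 fold change was -0.51. *Trib3* rested on roughly 40 to 92 fragments a library, and the log2(FPKM + 1) scale understates changes at such levels.

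*Chac1* (chromosome 2, 119351229 to 119354381, plus strand) encodes a glutathione-degrading enzyme. It had 4.6, 3.92 and 2.73 FPKM in WT and 1.78, 3.06 and 6.075 FPKM in TRIM24C52/55A livers. The knockin livers spanned the whole range, 3.41-fold, and the within-group SD was higher than that of 98.5% of genes tested. The log2 fold change was -0.12 (95% confidence interval -0.83 to 0.59, adjusted p = 0.862), 0.20 without TRIM24C52/55A replicate 1 and -0.48 without replicate 3. *Asns* (chromosome 6, 7675169 to 7693254, minus strand) encodes asparagine synthetase. It had 0.761, 0.299 and 0.219 FPKM in WT and 0.655, 1.88 and 0.576 FPKM in TRIM24C52/55A livers. Its highest value was in TRIM24C52/55A replicate 2, the library with the adipocyte genes, whose part in it was not tested. The mean of *Asns* was 0.426 FPKM in WT and 1.04 FPKM in TRIM24C52/55A livers. It passed the filter of 0.5 FPKM only through the latter group. The log2 fold change of *Asns* was 0.48 (95% confidence interval -0.09 to 1.04, adjusted p = 0.292), 0.20 without that library and 1.07 with a pseudocount of 0.1 (adjusted p = 0.259).

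Beside these members, 34 further targets of ATF4 and CHOP were listed, of which 24 passed the filter on low values. The serine and proline synthesis genes *Psat1*, *Phgdh* and *Pycr1* and the transporters *Slc7a11*, *Slc7a1* and *Slc7a3* were among the 10 that did not. Of the 24, 5 were above and 19 below 0, with a median log2 fold change of -0.121. With median-of-ratios and quantile scaling, 9 were above and 15 below 0, with medians of -0.0626 and -0.0654. With TPM 4 were above and 20 below 0 (median -0.184). In the main test none of the 24 was called higher and 5 (20.8%) were called lower, against 6.09% of all genes tested in that direction. That count was 8 with TPM, 3 with median-of-ratios or quantile scaling and 2 with no filter. Without WT replicate 1, 2 or 3 it was 2, 3 and 1, and without TRIM24C52/55A replicate 1, 2 or 3 it was 1, 6 and 3. The genes called lower among all genes tested moved too, from 744 to 1358 with TPM, 406 with median-of-ratios, 378 with quantile scaling, 252 with no filter and 202 to 1041 over the libraries left out in turn. The 5 were *Fgf21*, *Cebpb*, *Atf5*, *Sqstm1* and *Slc3a2*, of which the last 2 were named after their values were seen.

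*Fgf21*, a liver hormone of fasting and protein shortage that is also a known target of PPARalpha, had 19.2, 7.44 and 10.1 FPKM in WT and 4.07, 4.135 and 3.025 FPKM in TRIM24C52/55A livers. WT replicate 1 stood well above the other WT livers, and the groups did not overlap (log2 fold change -1.39, SE 0.28, adjusted p = 0.0248). The call was lost with no filter, without WT replicate 3 and without TRIM24C52/55A replicate 1 or 3. The log2 fold change of *Fgf21* was -1.66 to -1.03 over the libraries left out in turn. *Atf5*, a transcription factor related to ATF4 with high levels in liver, had 319, 261 and 265 FPKM in WT and 147, 163 and 144 FPKM in TRIM24C52/55A livers. It fell by 0.89 on the log2 scale (SE 0.10, adjusted p = 0.00273) and was called in each of the 15 alternatives.

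*Cebpb*, a factor that pairs with CHOP and ATF4, had 27.7, 19 and 19.9 FPKM against 7.335, 13.1 and 13.45 FPKM (log2 fold change -0.94, adjusted p = 0.0428), and was called in 5 of 15 alternatives. Leaving out any WT library or TRIM24C52/55A replicate 1 ended that call. *Sqstm1*, the autophagy receptor p62 and also a known NRF2 target, had 249.5, 239 and 264 FPKM against 175, 195 and 182 FPKM (log2 fold change -0.44, adjusted p = 0.0143, called in 12 of 15 alternatives), a call lost without WT replicate 1 or 3 or TRIM24C52/55A replicate 1. *Slc3a2*, the heavy chain of amino acid transporters, had 23.6, 23.1 and 24.4 FPKM against 17.3, 19.8 and 17.3 FPKM (log2 fold change -0.37, adjusted p = 0.035), and kept its call without TRIM24C52/55A replicate 2 alone of the 6 libraries. Over the list, 8 of 24 genes were lower in every TRIM24C52/55A liver than in every WT liver, against 22.5% of all genes tested.

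Of 12 aminoacyl-tRNA synthetases and the tRNA exporter *Xpot*, 6 were above and 7 below 0, with a median of -0.0066 that turned to 0.0943 with median-of-ratios and 0.133 with quantile scaling. *Xpot* was the gene called (7.69% of the list, against 6.09% of all genes tested called lower), with 13, 12.7 and 13.8 FPKM in WT and 9.31, 8.62 and 9.93 FPKM in TRIM24C52/55A livers (log2 fold change -0.46, adjusted p = 0.0194). It was called in 8 of 15 alternatives. The call was lost with median-of-ratios or quantile scaling, with the replicate block, and without WT replicate 1, 2 or 3 or TRIM24C52/55A replicate 1. The synthetases themselves, read by ATF4 through the same kind of element as *Asns*, gave no called gene.

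The Tribbles relatives of *Trib3* and the bZIP factors that pair with ATF4 or CHOP were tested for 15 of 16 genes, with 2 above and 13 below 0 and a median of -0.312. Of these, 4 (26.7%) were called lower and none higher, against 6.09% of all genes tested called lower. WT replicate 2 was the highest library for 9 of the 15 genes, and for 13.6% of all genes tested. *Jun* had 9.33, 15.9 and 10.8 FPKM in WT and 4.71, 7.19 and 6.47 FPKM in TRIM24C52/55A livers (log2 fold change -0.85, adjusted p = 0.0397). *Cebpd* had 2.745, 3.29 and 3.125 FPKM against 1.2, 2.05 and 1.33 FPKM (log2 fold change -0.69, adjusted p = 0.0248), and *Jdp2* had 1.82, 2.12 and 1.96 FPKM against 0.723, 1.24 and 1.25 FPKM (log2 fold change -0.53, adjusted p = 0.0484). The fourth, *Nfe2l1*, named after its values were seen, encodes an ER-anchored factor that restores proteasomes (log2 fold change -0.46, adjusted p = 0.0311). The list had 4 called genes without TRIM24C52/55A replicate 2 and 0 when any of the other libraries was left out. It had 1 called gene with median-of-ratios or quantile scaling, 2 with the replicate block and 0 with no filter. The median was -0.261 with median-of-ratios and -0.258 with quantile scaling.

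**Figure D4:**
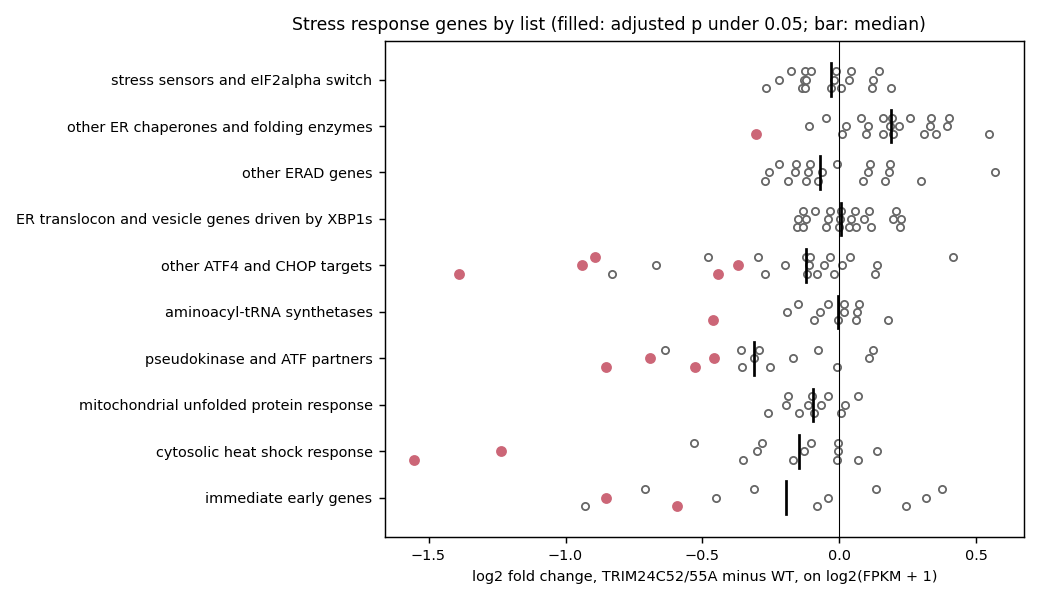
Log2 fold change (TRIM24C52/55A minus WT, on log2(FPKM + 1)) of the genes tested in each of 10 lists of related stress genes, one point per gene, with filled points for an adjusted p-value under 0.05 and a bar at the list's median. Filled points lie below 0 in every list that has any, and the bar of the ER chaperones, at 0.187, lies farthest to the right.

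The responses to unfolded protein outside the ER were set beside the members. Of 12 genes of the mitochondrial unfolded protein response tested of 13 listed, 3 were above and 9 below 0. None was called, against 7.72% of all genes tested. The list's median was -0.0973, which turned to 0.00456 with median-of-ratios and 0.0599 with quantile scaling. *Ubl5*, a small ubiquitin-like protein, had a log2 fold change of -0.26 (adjusted p = 0.0612), and passed the threshold in 1 of 15 alternatives. *Trap1*, the mitochondrial HSP90, had a log2 fold change of -0.19 (adjusted p = 0.165). Of 14 genes of the cytosolic heat shock response, 2 were above and 12 below 0, with a median of -0.149, and 2 (14.3%) were called lower, against 6.09% of all genes tested. The median was -0.0462 with median-of-ratios and -0.0728 with quantile scaling. *Hspa1b*, an inducible cytosolic HSP70, had 15.7, 29.95 and 28.2 FPKM in WT and 7.89, 7.54 and 6.90 FPKM in TRIM24C52/55A livers (log2 fold change -1.55, SE 0.21, adjusted p = 0.00662), and was called in each of the 15 alternatives. Its near-identical neighbour *Hspa1a* had 3.38, 6.35 and 7.7 FPKM against 1.59, 2.08 and 1.68 FPKM (log2 fold change -1.24, adjusted p = 0.019), and how reads were split between the copies is uncertain. The call of *Hspa1a* was lost with no filter and without WT replicate 2 or 3 or TRIM24C52/55A replicate 1. TRIM24C52/55A replicate 2 was the lowest library for 10 of the 14 heat shock genes, and without it 5 were above and 9 below 0, with a median of -0.0843 and 2 called lower. The list had 1 called gene without WT replicate 2, WT replicate 3 or TRIM24C52/55A replicate 1.

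Immediate early genes, which respond within minutes to handling and dissection, were counted because *Jun* is among them. Of 12 tested, 4 were above and 8 below 0, with a median of -0.196 that was 0.00372 without WT replicate 2, the highest library for 9 of the 12. The median was -0.557 without WT replicate 3 and -0.485 without TRIM24C52/55A replicate 2. *Jun* and *Zfp36*, an mRNA decay factor, were called lower (16.7% of the list, against 6.09% of all genes tested), *Zfp36* with 36.5, 39 and 31.9 FPKM in WT and 19.1, 27.1 and 24.6 FPKM in TRIM24C52/55A livers (log2 fold change -0.59, adjusted p = 0.035). The list was taken because of *Jun*, whose call was known beforehand, so the share called is raised by this choice. With median-of-ratios or quantile scaling, no filter or no mean-variance trend, neither *Jun* nor *Zfp36* was called. Of the libraries left out in turn, both kept the call without TRIM24C52/55A replicate 2 alone.

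Over all 10 lists, each gene once and the members left out, 171 of 184 genes were tested, and 14 (8.19%) were called, all lower. For all genes tested, 7.72% were called in either direction and 6.09% lower. The count of 14 was 4 without WT replicate 1, 4 without WT replicate 2, 2 without WT replicate 3, 2 without TRIM24C52/55A replicate 1, 15 without replicate 2 and 7 without replicate 3. With median-of-ratios scaling it was 9, with 3 higher, and with quantile scaling 9, with 3 higher. The 10 members themselves had 5 log2 fold changes above and 5 below 0, with a median of -0.00298. Among those above was *Asns*, whose WT mean lay below the filter. With median-of-ratios and quantile scaling, 6 members were above and 4 below 0, with medians of 0.0993 and 0.151. Over the libraries left out in turn the members' median was -0.0965 to 0.141. At an unadjusted p under 0.05, the members numbered 2, *Xbp1* and *Trib3*, and genes as a whole 2883 of 12225.

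Markers of other cells in the liver were summed in each library, and their part in the values above was not tested. The 9 adipocyte markers summed to 2747 to 3232 FPKM in WT and 2235 to 2931 FPKM in TRIM24C52/55A livers, nearly all from *Car3* and *Cdo1*, which liver also expresses, and 5 of 9 were highest in TRIM24C52/55A replicate 2. Kupffer cell and macrophage markers summed to 192 to 248.4 FPKM in WT and 161.4 to 227.4 FPKM in TRIM24C52/55A livers. Plasma and B cell markers summed to 21.74 to 28.79 FPKM in WT and 14.57 to 18.57 FPKM in TRIM24C52/55A livers, mostly from *Igkc* and *Ighm*. None of those tested was called. Of these cells, plasma cells are secretory, with high levels of *Xbp1* and ER chaperones. The plasma cell gene *Jchain* overlapped between groups, at means of 1.69 FPKM in WT and 1.39 FPKM in TRIM24C52/55A livers. Pancreatic acinar markers, from another secretory cell, summed to 3.658 to 8.336 and 11.19 to 16.1 FPKM, nearly all from *Cela1*, which was called higher (adjusted p = 0.0469), while *Cpa1*, *Cela2a*, *Amy2a5* and *Cel* were at 0 to 0.428 FPKM. Sinusoidal endothelial markers summed to 105.3 to 112.8 and 93.03 to 105.9 FPKM, with *Lyve1* called lower (log2 fold change -1.26, adjusted p = 0.0281). Stellate cell markers summed to 138.8 to 152.4 and 127.1 to 165.9 FPKM, mostly from *Dcn*. Among them *Lrat* and *Reln* were higher and *Pdgfrb* lower without overlap. Cholangiocyte markers summed to 28.48 to 53.82 and 21.84 to 33.98 FPKM, nearly all from *Spp1*, whose groups overlapped. No gene of these last lists was called.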

How the data were processed

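RNA of 6 HFD-fed mouse livers (3 WT, 3 TRIM24C52/55A) was sequenced, and the authors deposited FPKM per gene for each library, listing genes above 0 (unlisted genes were taken as 0). The submitters' processing notes name bcl2fastq, Salmon 0.14.0, DESeq2 1.30.0 and GRCm38, with no role or order. The aligner and annotation behind the FPKM are not given in the sources used here. FPKM keep no total count, so fragments are estimates. Files were joined by gene identifier, and members were taken by gene name. Genes whose mean reached 0.5 FPKM entered the test. It was run by limma 3.58.1 under R 4.3.3 on log2(FPKM + 1) values (lmFit, eBayes with a mean-variance trend, Benjamini-Hochberg adjustment) and was tested on simulated data. Each member also had an exact two-sided permutation test on mean FPKM. Tables and plots used Python 3.11.15, pandas 2.3.3, numpy 2.4.6 and matplotlib 3.10.9. The 15 alternatives were a pseudocount of 0.1, no filter, a mean of at least 1 FPKM, TPM, median-of-ratios and quantile scaling, no trend, robust variance, a replicate block and each library left out. From each list at most 3 called genes per direction were named, or, where none was called, the 2 of smallest p. *Alb* was not used here. The members and lists were chosen with earlier results of these data known. Promoters came from RefSeq.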

Additional observations from a re-analysis of the deposited data

How the results depend on the processing

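Of 149 fold changes of the members under the 15 alternatives, 139 kept their direction and side of the threshold, 8 reversed and 2, both of *Xbp1*, newly passed it. The number of members called was 1 with quantile normalization, and 0 to 1 over the libraries left out in turn. *Xbp1* had a log2 fold change of 0.55 with quantile normalization and 0.29 to 0.50 over the libraries left out. *Herpud1* reversed to 0.01 with median-of-ratios scaling and 0.07 with quantile normalization, and ran from -0.18 to 0.01 over the libraries left out, *Dnajb9* from -0.12 to 0.36 and *Chac1* from -0.48 to 0.20. The number of list genes called, 14, was 4 with no filter, 9 with median-of-ratios scaling, 9 with quantile normalization, 9 with no mean-variance trend, 9 with the replicate block and 2 to 15 over the libraries left out. The 944 genes called in all were 347 with no filter, 1555 with TPM, 578 with the replicate block and 294 to 1280 over the libraries left out. The median log2 fold change of all genes was -0.135 with TPM, 0.00662 with median-of-ratios scaling and 0.0104 with quantile normalization. The cause of these differences was not tested.

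Replicate numbers showed no pairing of the libraries, with deviations of same-numbered libraries correlated at -0.123, -0.099 and 0.003. With 3 libraries a group this cannot exclude a shared litter or batch. The replicate block, like the main test, called no member. A mean of at least 1 FPKM gave no value for *Asns*. Depth limits *Asns*, *Trib3*, *Chac1* and *Ddit3* most, with at most roughly 63, 92, 162 and 223 fragments a library.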
